A study of Mus musculus with 5 samples.

Results

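The genes described here are Myc and 9 regulators of G1 progression, the D cyclins Ccnd2 and Ccnd3, their kinases Cdk4 and Cdk6, the kinase inhibitors Cdkn1b and Cdkn2c, the E cyclins Ccne1 and Ccne2, and the transcription factor gene E2f1. They were taken by gene name as 10 of the 23234 genes of the deposited expression table, and all 10 were found and measured. Expression was profiled by RNA sequencing in germinal centre light zone B cells of mouse spleen, in 2 Csk(f/f)-labelled libraries and 3 Csk(+/+)-labelled libraries. The donor B cells were Csk(fl/fl) or Csk(+/+), and in both groups they carried ERT2cre(KI/+), a Cre recombinase made active by tamoxifen, and B1-8hi(KI/+), a heavy chain knock-in with affinity for the hapten NP, on a C57BL/6 background. Naive cells with the CD45.1/2 marker were given to C57BL/6J hosts, which keep B cells of their own, and NP-binding donor light zone cells were sorted. All hosts received NP-CGG with alum on day 0 and tamoxifen on days 8 and 9, so the controls saw the drug and the recombinase too, and cells were taken on day 11. The labels do not say how many animals made up a library, and the series text calls the libraries biological replicates.

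Light zone B cells that present antigen to T cells and receive help switch on MYC for a short time, and this marks the cells selected to divide again. MYC, together with mitogenic signals, raises the D cyclins, which pair with CDK4 or CDK6 and phosphorylate the retinoblastoma protein. E2F factors are then released and induce the E cyclins, which with CDK2 commit the cell to DNA replication. INK4 proteins such as p18 (Cdkn2c) block CDK4 and CDK6, and p27 (Cdkn1b) restrains cyclin E with CDK2. Cyclin D3 is the D cyclin on which division of germinal centre B cells is known to depend. The question was how the transcripts of this G1 programme differ once Csk, a kinase that dampens Src family kinases below the B cell receptor, is targeted.

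None of the 10 genes passed the test between the groups, and the deposited level of Myc was nearly the same in both. Cdk4 and Ccnd3 made up most of the kinase and D cyclin transcript in every library. E2f1 was higher, and Ccne2 and Cdkn1b lower, in both Csk(f/f)-labelled libraries than in any Csk(+/+)-labelled library, differences that did not pass the test and that lay along a trend of all genes with the GC content of transcripts. Values are FPKM (fragments scaled to transcript length and to the number of mapped fragments) as deposited, and since this unit is per length, levels of different genes are set side by side. Differences are on the log2(FPKM + 1) scale, Csk(f/f) minus Csk(+/+), with limma's standard error (SE) and its p adjusted over all 10242 genes that reached 1 FPKM in at least 2 libraries. A gene was counted as passing below an adjusted p of 0.05, and nominal p stands for an unadjusted p under 0.05.

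The steps between the lowest FPKM values put the depth at an estimated 9.55 M to 23.9 M fragments per library. The transcript of the targeted gene turned direction with a correction for the GC content of transcripts. Csk had 453 and 476 FPKM in the Csk(f/f)-labelled libraries, against 378, 436 and 415 FPKM in the Csk(+/+)-labelled libraries. The exact two-sided permutation p for Csk was 0.2. With the smaller tail doubled, this is the lowest p that the 10 splits allow, so the test could not reach the threshold. These groups did not overlap and were higher in Csk(f/f) as deposited (log2 difference 0.18, limma adjusted p = 0.439), and after the GC correction they did not overlap and were lower (-0.14, limma adjusted p = 0.818). An FPKM per gene also counts exons that Cre does not remove. It therefore did not check the genotype, and the groups keep the names of their labels. All 10 B cell identity genes and all 15 light zone genes listed were at 1 FPKM or more in every library. The summed FPKM of the light zone list was 1912 to 1995 in the Csk(f/f) group and 1609 to 1767 in the Csk(+/+) group, and that of the 9 dark zone genes was 527 to 549 and 468 to 554. Of 10 T cell markers, 7 stayed under 1 FPKM in all libraries and Cd3e, Cd3g and Icos were listed at 0, with sums of 109 to 111 in the Csk(f/f) group and 111 to 125 in the Csk(+/+) group, mostly from Lck. Of 10 macrophage and monocyte markers, 8 stayed under 1 FPKM and Mertk was listed at 0, with sums of 24.6 to 24.7 in the Csk(f/f) group and 12.2 to 21.5 in the Csk(+/+) group, carried by Lyz2 and Cd68. Plasma cell genes Sdc1, Prdm1, Tnfrsf17 and Fkbp11 were under 1 FPKM throughout, and the plasma cell list summed to 200 to 221 and 220 to 258. Of 7 follicular dendritic and stromal markers 6 were under 1 FPKM (sums 11.1 to 11.8 and 14.3 to 22.4), and of 7 neutrophil and natural killer markers 6 were (0 and 0 to 2.75). Erythroid and platelet genes, mainly Hba-a1, varied between libraries of both groups, with sums of 102 to 382 and 142 to 785. The part of these other cells in the results was not tested. Csk(+/+) replicate 3 received a library weight of 0.259, against 1.35 to 1.55 for the other 4, so results are also given without it where that matters.

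**Figure D1:**
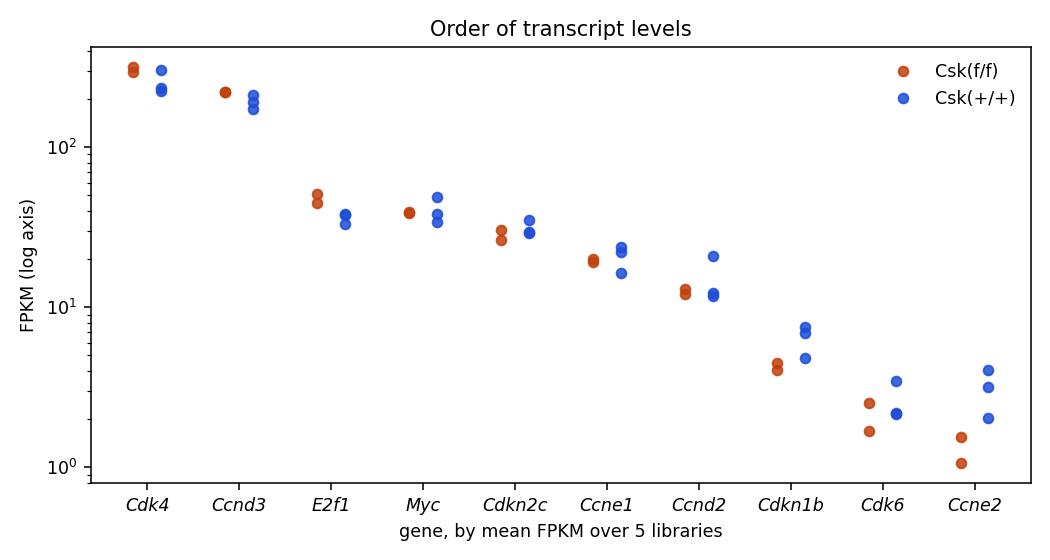
FPKM of the 10 genes on a log axis, 1 point per library, with Csk(f/f) left of Csk(+/+) and genes in order of their mean over 5 libraries. Cdk4 and Ccnd3 stand above all others and Cdk6 and Ccne2 lie lowest, and the groups lie close to each other for most genes.

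Transcript levels of the 10 genes differed widely. Averaged over the 5 libraries, Cdk4 (274 FPKM) and Ccnd3 (204 FPKM) came first, above 96.8% and 95.7% of all genes tested. E2f1 (40.9 FPKM) and Myc (39.8 FPKM) followed, and Cdkn2c (30.0 FPKM), Ccne1 (20.3 FPKM) and Ccnd2 (14.0 FPKM) lay in the middle. Cdkn1b (5.54 FPKM), Cdk6 (2.40 FPKM) and Ccne2 (2.37 FPKM) were the lowest, with Ccne2 above only 13.9% of the genes tested. Cdk4 was above Ccnd3, Ccnd3 above E2f1, Cdkn2c above Ccne1, Ccnd2 above Cdkn1b and Cdkn1b above Cdk6 with no overlap of their ranges over libraries. The neighbours E2f1 and Myc overlapped, as did Myc and Cdkn2c, Ccne1 and Ccnd2, and Cdk6 and Ccne2, although in 5 of 5 libraries Myc was above Cdkn2c and Ccne1 above Ccnd2.

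**Figure D2:**
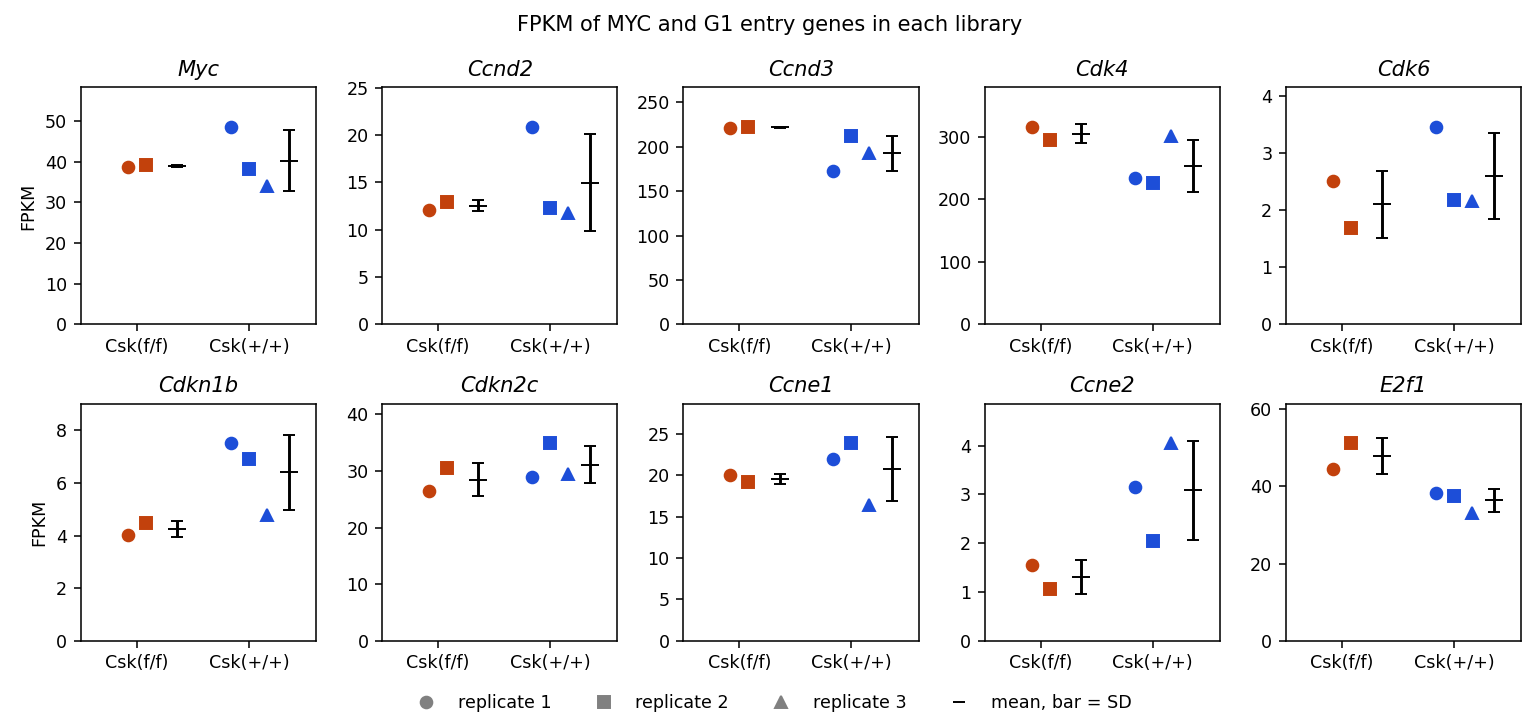
FPKM of each gene in each library (linear axes from 0, Csk(f/f) left, Csk(+/+) right, symbols by replicate number), with the mean and SD of each group beside the points. The groups do not overlap for Ccnd3, E2f1, Cdkn1b and Ccne2, and Csk(+/+) replicate 1 is the highest library for Myc, Ccnd2, Cdk6 and Cdkn1b.

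Myc, the transcription factor that licenses selected light zone cells to grow and divide, had 38.8 and 39.1 FPKM in the Csk(f/f)-labelled libraries, against 48.6, 38.3 and 34.0 FPKM in the Csk(+/+)-labelled libraries. Both Csk(f/f)-labelled libraries lay inside the range of the others. The means were 39.0 ± 0.283 (SD, n = 2) and 40.3 ± 7.51 (SD, n = 3), a log2 difference of -0.03 ± 0.17 (SE, limma adjusted p = 0.922). The 95% confidence interval ran from 0.743-fold to 1.29-fold, and a difference within that range could not be told from the spread of these libraries. As deposited the sign rested on Csk(+/+) replicate 1, the highest library, without which the log2 difference was 0.11 (limma adjusted p = 0.740). This was the 1 of 21 alternative settings that turned the sign. After the GC correction with all libraries the log2 difference was -0.20 (limma adjusted p = 0.719). The groups then did not overlap, as for 28.5% of all genes. In these bulk libraries, fewer cells with Myc transcript and less Myc RNA per cell cannot be told apart.

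Among the D cyclins, Ccnd3 was the main transcript. It had 221 and 222 FPKM in the Csk(f/f)-labelled libraries, against 173, 212 and 193 FPKM in the Csk(+/+)-labelled libraries. Both Csk(f/f)-labelled libraries lay above the other 3, by a small margin over Csk(+/+) replicate 2, and the difference did not pass (0.21 ± 0.13, SE, limma adjusted p = 0.376). Ccnd2, the D cyclin best known for induction by B cell receptor signals, had 12.1 and 13.0 FPKM in the Csk(f/f)-labelled libraries, against 20.9, 12.2 and 11.8 FPKM in the Csk(+/+)-labelled libraries. Only Csk(+/+) replicate 1 stood out, and without it the log2 difference of Ccnd2 turned from -0.19 (adjusted p = 0.666) to 0.06 (adjusted p = 0.895). Ccnd3 was 18.2 and 17.1 times Ccnd2 in the Csk(f/f)-labelled libraries, against 8.30, 17.3 and 16.4 times in the Csk(+/+)-labelled libraries. Ccnd3 thus made up 94.5% to 94.8% of the summed Ccnd2 and Ccnd3 FPKM in the Csk(f/f) group and 89.3% to 94.5% in the Csk(+/+) group. That sum was 233 and 235 FPKM in the Csk(f/f)-labelled libraries, against 194, 224 and 204 FPKM in the Csk(+/+)-labelled libraries. It followed Ccnd3 in lying higher in both Csk(f/f)-labelled libraries, and 45.1% of all genes tested had groups that did not overlap. The Ccnd3 difference did not pass, and after the GC correction it was -0.07 with overlapping groups. That of Ccnd2 was then -0.04. The ratios and shares above were not corrected for transcript GC content, which is 56.7% for Ccnd3 and 47.1% for Ccnd2. The other D cyclin gene, Ccnd1, stayed between 0.314 and 0.475 FPKM and was not tested.

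The G1 kinases were more unequal than the D cyclins. Cdk4 had 316 and 294 FPKM in the Csk(f/f)-labelled libraries, against 234, 226 and 301 FPKM in the Csk(+/+)-labelled libraries. The groups overlapped through Csk(+/+) replicate 3 alone, and the log2 difference was 0.28 ± 0.16 (SE, limma adjusted p = 0.333). Without that library it was 0.41 ± 0.10 (SE, limma adjusted p = 0.0573), short of the threshold, and with the GC correction as well it was 0.29 (adjusted p = 0.204). Cdk6, the other kinase partner of the D cyclins, had 2.51 and 1.69 FPKM in the Csk(f/f)-labelled libraries, against 3.46, 2.18 and 2.15 FPKM in the Csk(+/+)-labelled libraries, which overlap, with a log2 difference of -0.21 ± 0.24 (SE, limma adjusted p = 0.622). Cdk4 transcript was 126 and 174 times that of Cdk6 in the Csk(f/f)-labelled libraries, against 67.6, 104 and 140 times in the Csk(+/+)-labelled libraries. It made up 98.5% to 99.4% of the summed Cdk4 and Cdk6 FPKM over the 5 libraries. These ratios and shares were not corrected for transcript GC content, which is 53.3% for Cdk4 and 45.1% for Cdk6. After the GC correction with all libraries the log2 differences were 0.10 for Cdk4 and 0.05 for Cdk6.

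The promoters of these paralogs are printed because their levels differ most among the paired genes and because Cdk4 is a known direct target of MYC, which binds the E-box CACGTG. Both are RefSeq windows of 300 bases on GRCm38.p6 (the authors mapped to mm9), from 250 bases before to 50 bases after an annotated start, with each E-box in capitals. The Cdk4 window is chr10:127063285-127063584 and the Cdk6 window chr5:3343643-3343942, both on the plus strand.
Cdk4: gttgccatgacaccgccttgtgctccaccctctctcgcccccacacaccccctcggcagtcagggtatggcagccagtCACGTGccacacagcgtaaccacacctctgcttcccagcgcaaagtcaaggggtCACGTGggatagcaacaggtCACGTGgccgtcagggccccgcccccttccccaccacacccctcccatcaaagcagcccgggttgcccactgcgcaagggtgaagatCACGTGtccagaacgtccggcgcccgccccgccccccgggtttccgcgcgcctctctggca
Cdk6: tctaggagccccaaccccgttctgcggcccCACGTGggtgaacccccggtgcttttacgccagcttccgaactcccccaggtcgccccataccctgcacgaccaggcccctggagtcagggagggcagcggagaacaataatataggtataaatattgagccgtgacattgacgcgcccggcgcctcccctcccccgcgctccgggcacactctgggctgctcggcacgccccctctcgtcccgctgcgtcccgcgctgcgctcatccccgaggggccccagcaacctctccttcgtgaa
Cdk4 held 4 E-boxes, which began 172, 118, 98 and 11 bases before the start, and Cdk6 held 1, which began 220 bases before it. Of the 32851 promoter windows in the table, 7.15% held at least 1 E-box (a palindrome, so the same on both strands) and 8 windows, or 0.0244%, held at least 4. Promoter entries were found for 7 of the 10 genes and not for Myc, Ccnd2 and Ccne2. The E2f1 entry covers coding sequence of the gene, so the promoter upstream of that sequence was not read. Beside Cdk4 and Cdk6, 1 of the 2 Cdkn2c entries held an E-box. No entry of the 7 genes held TTTCCCGC, TTTGGCGC, TTTCGCGC or TTTGCCGC on either strand, letters that E2F factors bind and that 2.26% of all windows held, and this says only that these letters are not in these windows.

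Of the kinase inhibitors, Cdkn2c was the higher transcript. Cdkn2c, which encodes the INK4 protein p18, had 26.4 and 30.5 FPKM in the Csk(f/f)-labelled libraries, against 28.9, 34.9 and 29.5 FPKM in the Csk(+/+)-labelled libraries. These values overlap and gave a log2 difference of -0.12 ± 0.15 (SE, limma adjusted p = 0.636). Cdkn1b, which encodes p27, had 4.03 and 4.48 FPKM in the Csk(f/f)-labelled libraries, against 7.51, 6.92 and 4.79 FPKM in the Csk(+/+)-labelled libraries. Both Csk(f/f)-labelled libraries lay below the other 3, with Csk(+/+) replicate 3 nearest to them. The log2 difference of Cdkn1b was -0.48 ± 0.22 (SE, limma adjusted p = 0.259), and without Csk(+/+) replicate 3 it was -0.65 ± 0.17 (SE, limma adjusted p = 0.0595). With the GC correction as well it was -0.26 (adjusted p = 0.378). Cdkn2c transcript was 6.56 and 6.82 times that of Cdkn1b in the Csk(f/f)-labelled libraries, against 3.85, 5.04 and 6.17 times in the Csk(+/+)-labelled libraries. This ratio was not corrected for transcript GC content, which is 58.0% for Cdkn2c and 43.1% for Cdkn1b. After the GC correction with all libraries the log2 differences were -0.42 for Cdkn2c and -0.13 for Cdkn1b.

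Of the E cyclins, which drive entry into S phase with CDK2, Ccne1 was the main transcript. It had 20.0 and 19.2 FPKM in the Csk(f/f)-labelled libraries, against 22.0, 23.9 and 16.5 FPKM in the Csk(+/+)-labelled libraries. Both Csk(f/f)-labelled libraries lay inside the range of the others (log2 difference -0.07 ± 0.19, SE, limma adjusted p = 0.843). Ccne2 had 1.56 and 1.06 FPKM in the Csk(f/f)-labelled libraries, against 3.16, 2.04 and 4.05 FPKM in the Csk(+/+)-labelled libraries. It was lower in both Csk(f/f)-labelled libraries than in any other, and its log2 difference of -0.80 ± 0.26 (SE) was the largest in size of the 10 genes and did not pass (limma adjusted p = 0.176, unadjusted p = 0.0161). At the estimated depths and a transcript of 3006 nt, these values rest on about 30.3 to 151 fragments per library, the fewest of the 10 genes. Ccne1 made up 92.8% and 94.8% of the summed E cyclin FPKM in the Csk(f/f)-labelled libraries, against 87.5%, 92.1% and 80.2% in the Csk(+/+)-labelled libraries. These shares were not corrected for transcript GC content, which is 52.7% for Ccne1 and 36.3% for Ccne2. After the GC correction the log2 differences were -0.21 for Ccne1 and -0.25 for Ccne2. Both E cyclins together had 21.5 and 20.2 FPKM in the Csk(f/f)-labelled libraries, against 25.2, 25.9 and 20.5 FPKM in the Csk(+/+)-labelled libraries, and the groups overlapped.

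E2f1, the E2F factor that retinoblastoma protein holds in check and that activates S phase genes, had 44.6 and 51.1 FPKM in the Csk(f/f)-labelled libraries, against 38.3, 37.6 and 33.0 FPKM in the Csk(+/+)-labelled libraries. Both Csk(f/f)-labelled libraries lay above all 3 others. The means were 47.8 ± 4.64 (SD, n = 2) and 36.3 ± 2.91 (SD, n = 3), with a log2 difference of 0.39 ± 0.14 (SE, limma adjusted p = 0.194, unadjusted p = 0.0247). The 95% confidence interval was 1.05-fold to 1.64-fold before adjustment for the number of genes tested.

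Some of these genes share exon sequence with a neighbour on the opposite strand in the GRCm38 annotation, and the sources used here do not say that counting used strand, so their reads may not be fully separable. Ccne2 overlaps Ints8, a subunit gene of the Integrator complex, over 609 bases. Ints8 had 6.58 and 4.59 FPKM in the Csk(f/f)-labelled libraries, against 12.0, 11.1 and 9.87 FPKM in the Csk(+/+)-labelled libraries, higher than Ccne2 in every library and lower in the same group as Ccne2 (log2 difference -0.88 ± 0.20, SE, limma adjusted p = 0.154). The part of Ints8 reads in the Ccne2 values was not tested. Cdk4 overlaps Tspan31 over 641 bases and Ccnd3 overlaps Bysl over 361 bases, and both neighbours were far lower than the cell cycle gene (16.7 to 24.4 FPKM for Tspan31 and 29.0 to 42.7 FPKM for Bysl). Ccnd3 also has an annotated processed pseudogene.

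**Figure D3:**
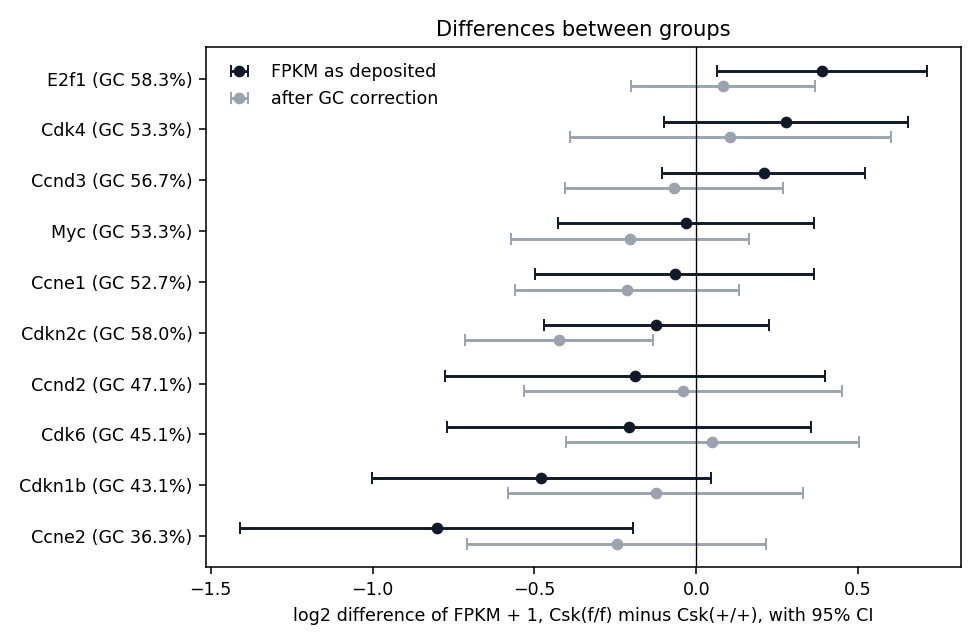
Log2 difference of FPKM + 1 (Csk(f/f) minus Csk(+/+)) of each gene with its 95% confidence interval, as deposited (black) and after the correction for transcript GC content (grey), with the GC content beside each name. Only E2f1 and Ccne2 have unadjusted intervals that leave out 0 as deposited, and only Cdkn2c does after the correction.

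The shares of differences among the 10 genes lay near those among all genes. None passed by limma, where 0.0781% of all genes tested did (8 of 10242, with 0.0391% in each direction). At nominal p there were 2 (E2f1 higher and Ccne2 lower), where 21.7% of all genes had such a p (8.07% higher and 13.6% lower). Groups did not overlap for 4 of the 10, Ccnd3 and E2f1 higher and Cdkn1b and Ccne2 lower, where 45.1% of all genes tested did not overlap (20.7% higher and 24.5% lower). The median log2 difference of the 10 was -0.09, with 3 positive and 7 negative, beside a median of -0.01 over all genes. Without Csk(+/+) replicate 3 none of the 10 passed either, where 4.05% of all genes did (1.26% higher and 2.79% lower). At nominal p there were then 4 (Cdk4 and E2f1 higher, Cdkn1b and Ccne2 lower), where 34.7% of all genes stood (13.3% higher and 21.4% lower). Groups then did not overlap for 6 of the 10 (Ccnd3, Cdk4 and E2f1 higher, Cdkn1b, Ccne1 and Ccne2 lower), beside 66.6% of all genes (28.2% higher and 38.4% lower).

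**Figure D4:**
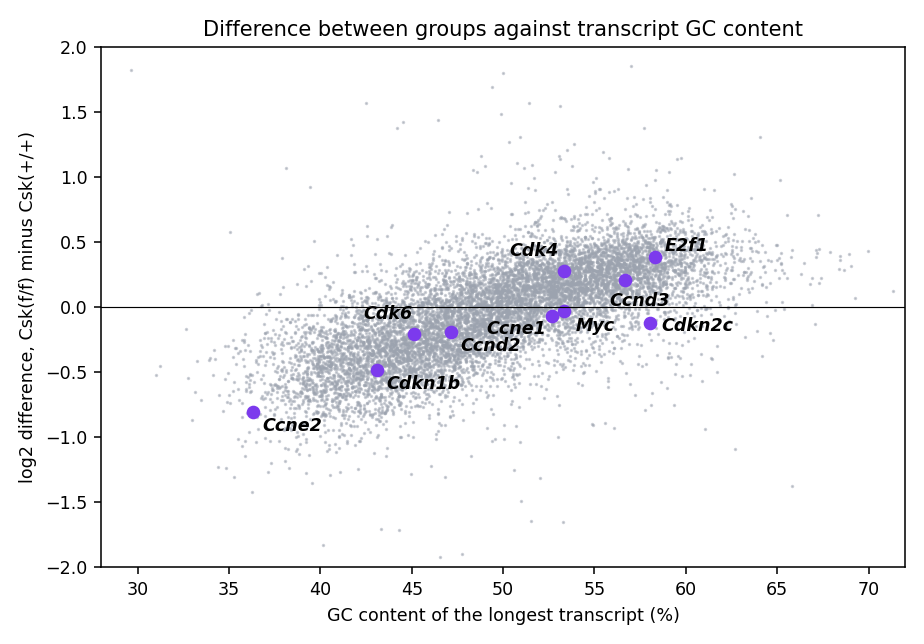
Log2 difference (Csk(f/f) minus Csk(+/+)) against the GC content of the longest annotated transcript, with all genes tested in grey and the 10 genes labelled; 49 of 10111 genes lie outside the axes. Differences of the 10 genes run from Ccne2 at the low end of GC content to E2f1 at the high end, along the band of all genes, with Cdkn2c below it.

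The order of the 10 differences resembled the order of their GC content. Across the 10111 genes tested that had a GC value, the log2 difference increased with transcript GC content (Spearman rho 0.71, across genes, which share the same 5 libraries and are not independent replicates). Ccne2 has the lowest GC content of the 10, 36.3%, and the lowest difference, and E2f1 the highest, 58.3%, and the highest difference. Cdkn1b (43.1%), Cdk6 (45.1%) and Ccnd2 (47.1%) had the next lowest values of both, while Cdkn2c, at 58.0%, did not follow the order. After the GC trend was subtracted from each library, the log2 difference of Ccne2 was -0.25 ± 0.19 (SE, limma adjusted p = 0.733), that of Cdkn1b was -0.13 ± 0.19 (SE, limma adjusted p = 0.872) and that of E2f1 was 0.08 ± 0.12 (SE, limma adjusted p = 0.863). Ccnd3 and Cdk6 changed sign under it, to -0.07 and 0.05. Myc came to -0.20 ± 0.16 (SE, limma adjusted p = 0.719), and Cdkn2c moved away from 0, to -0.42 ± 0.12 (SE, limma adjusted p = 0.416, unadjusted p = 0.0107). Cdkn2c and Myc were then the 2 genes of the 10 whose groups did not overlap, both lower in Csk(f/f), where 28.5% of all genes did not overlap (14.6% higher and 13.9% lower). Cdkn2c was the 1 gene of the 10 at nominal p, where 9.98% of all genes stood (4.91% higher and 5.07% lower). None of the 10 passed with the correction, where 0.0791% of all genes did (0.0396% in each direction).

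Other genes of the same pathways were described by lists, each read as the number of tested members that passed and the median log2 difference. By limma none of the members of any list passed, and none did after the GC correction. The MYC network, the partners and antagonists that share MAX or act on MYC, had 16 tested members with a median log2 difference of 0.18 (0.05 after the GC correction), with 1 higher and 1 lower at nominal p (0 and 0 after it). Over all genes 8.07% were higher and 13.6% lower at nominal p, and 4.91% and 5.07% after the GC correction. Zbtb17, which encodes the MYC partner MIZ1, had 21.4 and 24.5 FPKM in the Csk(f/f)-labelled libraries, against 17.3, 18.9 and 14.6 FPKM in the Csk(+/+)-labelled libraries (limma adjusted p = 0.213). Fbxw7, the ubiquitin ligase subunit that targets MYC and cyclin E for degradation, had 10.9 and 10.2 FPKM in the Csk(f/f)-labelled libraries, against 19.2, 13.6 and 13.2 FPKM in the Csk(+/+)-labelled libraries (adjusted p = 0.221). Mnt, a MAX partner that opposes MYC, had 16.2 and 18.6 FPKM in the Csk(f/f)-labelled libraries, against 13.0, 14.7 and 8.00 FPKM in the Csk(+/+)-labelled libraries (adjusted p = 0.251). The groups did not overlap for these 3 genes, which were chosen by their small p, and for 6 of the 16 in all (4 higher and 2 lower), beside 45.1% of all genes. After the GC correction the groups overlapped for Mnt. The log2 differences of Zbtb17, Fbxw7 and Mnt were 0.42, -0.49 and 0.55 as deposited, and 0.11, -0.31 and 0.23 after it. Mycn was listed at 0 in all 5 libraries.

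The other G1 cyclins, kinases and inhibitors had 18 tested members with a median of -0.27 (-0.16 after the GC correction), 1 higher and 7 lower at nominal p, beside 8.07% and 13.6% of all genes (0 and 1 after it, beside 4.91% and 5.07%). Ccnh, the cyclin of the CDK-activating kinase, averaged 9.94 FPKM in the Csk(f/f) group and 16.3 FPKM in the Csk(+/+) group. Cdkn3, a phosphatase that acts on cyclin-dependent kinases, averaged 17.4 and 27.7 FPKM, and Cks2, a small subunit of these kinases, 92.1 and 132 FPKM, with limma adjusted p-values of 0.155, 0.155 and 0.178 for the 3 genes. The log2 differences of Ccnh, Cdkn3 and Cks2 were -0.66, -0.63 and -0.50 as deposited, and -0.16, -0.42 and -0.23 after the GC correction. Without Csk(+/+) replicate 3, Ccng2 alone of this list passed, as lower (log2 difference -0.63, limma adjusted p = 0.0490), where 2.79% of all genes did.

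The pocket proteins and the other E2F family genes had 17 tested members with a median of -0.19 (-0.07 after the GC correction), 1 higher and 3 lower at nominal p, beside 8.07% and 13.6% of all genes (0 and 1 after it, beside 4.91% and 5.07%). Rbl1, which encodes the pocket protein p107, averaged 10.2 FPKM in the Csk(f/f) group and 15.9 FPKM in the Csk(+/+) group, and Lin54, a subunit of the DREAM and MuvB complexes, 1.63 and 2.91 FPKM. Mybl2, the B-MYB gene and an E2F target, averaged 78.9 and 61.8 FPKM, higher in the Csk(f/f)-labelled libraries. By limma the adjusted p was 0.166 for Rbl1, 0.194 for Lin54 and 0.192 for Mybl2. With the GC correction the log2 difference went from -0.60 to -0.21 for Rbl1 and from -0.57 to -0.17 for Lin54. That of Mybl2 went from 0.34 to 0.08 (limma adjusted p = 0.870), and its groups overlapped.

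The 24 E2F targets of S phase entry had a median of -0.15 (-0.12 after the GC correction), with 0 higher and 8 lower at nominal p, beside 8.07% and 13.6% of all genes (0 and 2 after it, beside 4.91% and 5.07%). Mcm4, a subunit of the replicative helicase, had 48.0 and 43.3 FPKM in the Csk(f/f)-labelled libraries, against 87.7, 72.9 and 73.7 FPKM in the Csk(+/+)-labelled libraries (log2 difference -0.76 ± 0.14, SE, limma adjusted p = 0.128), and after the GC correction the difference was -0.52 (adjusted p = 0.352). Ccna2, which encodes cyclin A2, averaged 42.1 FPKM in the Csk(f/f) group and 62.7 FPKM in the Csk(+/+) group (adjusted p = 0.154). Pcna, the sliding clamp of DNA polymerases, averaged 334 and 479 FPKM (adjusted p = 0.155). With the GC correction the log2 difference went from -0.56 to -0.36 for Ccna2 and from -0.52 to -0.27 for Pcna. Without Csk(+/+) replicate 3, the 3 genes Mcm4 (adjusted p = 0.0315), Slbp (0.0315) and Ccna2 (0.0490) passed as lower by limma, where 2.79% of all genes did. With the GC correction as well none of the 24 passed. Of the 24 targets 16 had a negative and 8 a positive difference over all 5 libraries.

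The 30 MYC targets had a median of -0.05 (-0.01 after the GC correction), with 5 higher and 8 lower at nominal p, beside 8.07% and 13.6% of all genes (1 and 3 after it, beside 4.91% and 5.07%). Cad, the enzyme that starts pyrimidine synthesis, averaged 71.3 FPKM in the Csk(f/f) group and 47.1 FPKM in the Csk(+/+) group. The nucleolar genes Npm1 (339 and 596 FPKM) and Ncl (48.1 and 87.6 FPKM) were lower on average in the Csk(f/f) group. By limma the adjusted p was 0.155 for Cad and Ncl and 0.154 for Npm1. With the GC correction the log2 difference of Cad went from 0.59 to 0.30. That of Npm1 went from -0.81 to -0.43 and that of Ncl from -0.84 to -0.48. Without Csk(+/+) replicate 3, Tfrc alone of this list passed, as lower (log2 difference -0.93, limma adjusted p = 0.0482), where 2.79% of all genes did. With the GC correction as well none of the 30 passed. MYC targets thus stood on both sides of 0, as the plot of differences by list shows.

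**Figure D5:**
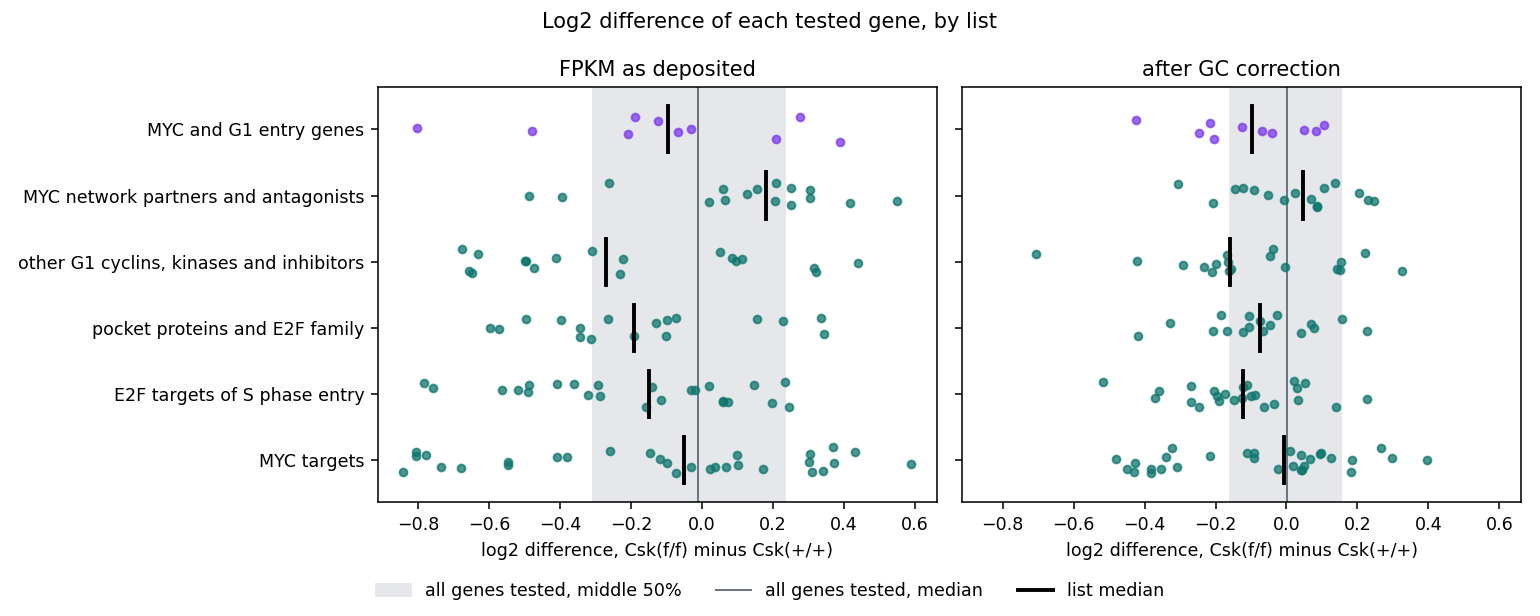
Log2 difference (Csk(f/f) minus Csk(+/+)) of each tested gene by list, as deposited (left) and after the GC correction (right), with list medians as black bars and the median and middle 50% of all genes tested in grey. The 10 genes have a median of -0.09 as deposited and -0.10 after the correction, and the median of the MYC network list moves from 0.18 to 0.05.

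The genes most like Myc over the 5 libraries were Snrpf, Prmt3, Dcun1d2, Zwint and 1810030O07Rik, out of 7397 genes with a mean of at least 5 FPKM. Likeness was the root mean square difference between the log2(FPKM + 1) profiles, each centred on its own mean, and it was 0.0351 to 0.0393 for these 5 genes. Prmt3, an arginine methyltransferase gene, had 19.4 and 19.2 FPKM in the Csk(f/f)-labelled libraries, against 23.4, 19.7 and 16.4 FPKM in the Csk(+/+)-labelled libraries. As with Myc, Csk(+/+) replicate 1 was the highest library and replicate 3 the lowest for all 5 genes, so the likeness rests on spread among the Csk(+/+) libraries. Among the other regulators compared, Ccnd2 (0.150) and Ccne1 (0.151) were nearest to Myc and Cdk4 (0.320) farthest. Ccnd2 ranked only 848 and Ccne1 877 among the 7397 genes, so neither was close to Myc by this measure. Cdk6 and Ccne2 were below 5 FPKM and not compared.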

How the data were processed

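RNA sequencing of 5 libraries of sorted cells was analysed from 1 deposited table. Total RNA was purified with TRIzol and libraries used a NEBNext Ultra kit, per the labels. The deposited values are FPKM per gene, made with TopHat2 2.0.8 and Cufflinks 2.1.1 on mm9 per the submitters' processing notes. The annotation and any scaling between libraries are not given in the sources used here. Beside 23234 genes, 1 line that repeats a header was left out.

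Genes at 1 FPKM or more in at least 2 libraries were tested in R 4.3.3 by limma 3.58.1 after log2(FPKM + 1) transformation (trended prior; Benjamini-Hochberg over 10242 genes). The pipeline was tested on simulated data. Transcript GC content came from the longest GENCODE M21 transcript (GRCm38) by gene name, found for 98.7% of genes, and its lowess trend (span 0.3) was subtracted per library in the GC correction. Depth was estimated from genes with transcripts of at least 1500 nt.

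The 10 genes, the lists and the GC correction were chosen with earlier results of these data known. The text names the 10 genes and Csk, from each list the members that passed or the 3 with the smallest p, and the 5 genes most like Myc. Genes named outside this rule, after their values were seen, were Ccnd1, Mycn, Cdkn1a, the overlapping neighbours, the cell markers and those that passed without Csk(+/+) replicate 3. Alternatives were pseudocounts of 0.1 and 5, a filter at 5 FPKM or none, quantile and median-ratio scaling, a robust prior, library weights, the GC correction, the replicate block and each library left out.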

Additional observations from a re-analysis of the deposited data

How the results depend on the processing

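None of the 10 genes passed by limma in any of the 21 alternative settings, with adjusted p-values of 0.0573 to 1.000, and 190 of their 208 values kept the sign. All values of E2f1 stayed positive (0.018 to 0.49), and all of Ccne2 (-1.15 to -0.12) and Cdkn2c (-0.49 to -0.022) negative. Some of these lie close to 0, and all settings draw on the same 5 libraries. The count of the 10 with no overlap between groups, 4 as deposited (45.1% of all genes), was 2 with the GC correction and 2 with it and the replicate block (28.5% of all genes in both). With 1 library left out it was 4 to 6 (up to 66.6% of all genes), and 3 to 5 with the GC correction as well (35.8% to 53.9%). Of all genes, the number past the threshold, 8 as deposited, was 5 without a filter, 671 with library weights, 492 with the replicate block, 174 with the block and the GC correction, and 5 to 411 with 1 library left out, the last without Csk(+/+) replicate 3. Without that replicate and with the GC correction it was 40, and without Csk(f/f) replicate 1 or 2 and with the correction 5 each time. The lists were at 0 as deposited, with 24 E2F targets, 30 MYC targets, 18 other G1 genes, 15 light zone and 9 dark zone genes tested. Past the threshold in that order were 5, 6, 2, 1 and 1 with library weights (671 of all 10242 genes). With the block they were 3, 5, 1, 0 and 1 (492 of 10242). With the block and the GC correction they were 1, 1, 0, 2 and 0 (174 of 10111). Without Csk(+/+) replicate 3 they were 3, 1, 1, 0 and 1 (411 of 10147, or 4.05%). The labels do not say that a replicate number marks a shared day or litter, and the block leaves Csk(+/+) replicate 3 unpaired. Deviations of same-numbered libraries from their group means correlated at -0.132 and 0.107. With 2 Csk(f/f) libraries their deviations mirror each other, so these values cannot decide whether the numbers mark pairs. With the block 4 of the 10 genes stood at nominal p, where 36.8% of all genes did, and none passed. Signs turned as follows, and the cause was not tested. With the GC correction the log2 difference came to -0.14 for Csk, -0.068 for Ccnd3, 0.0039 for Cd86, 0.049 for Cdk6, 0.022 for Pafah1b1 and -0.010 for Pold1. With the correction and the replicate block the log2 difference came to -0.074 for Csk, -0.011 for Ccnd3, 0.028 for Cd86 and 0.013 for Cdk6. With the correction and 1 library left out it came to -0.075, -0.13, -0.15, -0.19 and -0.16 for Csk, 0.16 for Ccnd2, -0.011, -0.10, -0.037, -0.14 and -0.052 for Ccnd3, 0.030 and 0.016 for Cd86, -0.012 for Cdk4, 0.015, 0.22 and 0.16 for Cdk6, 0.0086 for Cdkn1b, 0.12, 0.077 and 0.056 for Pafah1b1 and -0.062, -0.073 and -0.0073 for Pold1. With 1 library left out and no correction it ran from -0.33 to 0.060 for Ccnd2, from -0.22 to 0.037 for Ccne1 and from -0.14 to 0.11 for Myc. Where a group has 1 library left, it was assumed to vary like the other group. The count with no overlap, and leaving out libraries other than Csk(+/+) replicate 3 with the GC correction, were added after seeing the data. Depth limits Ccne2 most.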

Other observations

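Zone genes gave a mixed picture. Of 15 light zone genes 5 were higher and 3 lower at nominal p, with a median log2 difference of 0.20, and of 9 dark zone genes 1 was higher and 2 lower, with a median of 0.05, where 8.07% of all genes were higher and 13.6% lower. After the GC correction the counts were 2 and 2 for the light zone genes and 0 and 1 for the dark zone genes, where 4.91% and 5.07% of all genes stood. None passed by limma. Lmo2 averaged 64.6 FPKM in the Csk(f/f) group and 88.5 FPKM in the Csk(+/+) group, Icam1, an adhesion molecule for T cell contact, 110 and 83.5 FPKM, and the costimulatory gene Cd86 60.2 and 76.6 FPKM. Of the dark zone genes Polh, the error-prone polymerase of somatic hypermutation, averaged 18.8 and 27.6 FPKM, Pafah1b1 17.0 and 23.3 FPKM, and Pold1 125 and 99.9 FPKM. Limma adjusted p-values of these 6 genes ran from 0.155 for Polh to 0.227 for Pold1. Without Csk(+/+) replicate 3 Polh passed as lower (log2 difference -0.61, limma adjusted p = 0.0471), where 2.79% of all genes did. With the GC correction as well none of the 9 dark zone genes passed. After the correction with all 5 libraries Polh did not pass (-0.41, limma adjusted p = 0.415). With the GC correction Cd86 (0.0039), Pafah1b1 (0.022) and Pold1 (-0.010) turned sign, close to 0. The log2 difference of Lmo2 went from -0.45 to -0.64 and that of Icam1 from 0.40 to 0.16. Cdkn1a, the p21 inhibitor gene of the other G1 list, had 5.73 and 6.56 FPKM in the Csk(f/f)-labelled libraries, against 10.7, 8.59 and 8.08 FPKM in the Csk(+/+)-labelled libraries, and was chosen after its values were seen. It was lower in both Csk(f/f)-labelled libraries than in the others, where 45.1% of all genes did not overlap as deposited and 28.5% after the GC correction. The log2 difference of Cdkn1a was -0.50 as deposited (limma adjusted p = 0.209) and -0.70 after the GC correction (limma adjusted p = 0.347).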
